A study of Mus musculus with 71 samples.

Results

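A set of 9 genes of GABA neurons was followed through 71 RNA-seq libraries of mouse brain. They were taken by symbol from the tables of 37681 genes, and all 9 were found: Gad1, Gad2, Slc32a1, Abat, Pvalb, Calb2, Lhx6, Dlx1 and Dlx2. The study compared mice that had self-administered cocaine with mice that had self-administered saline, in the nucleus accumbens (NAc), the ventral tegmental area (VTA) and the prefrontal cortex (PFC), after 1 day or 28 days of abstinence. Each of the 12 groups held 6 libraries, except VTA saline at 28 days, with 5. The mice were wild type C57BL/6 by the labels, and by the methods C57BL/6J mice of both sexes, 8 weeks old, and earned saline or cocaine at 0.7 mg/kg per infusion in daily sessions of 2 hours for 21 days. Saline mice shared the surgery, the training and the housing of the cocaine mice. The labels do not say that the libraries of a group came from separate animals, so the p-values measure the spread between libraries, and the sex of each library was not used.

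GABA is made from glutamate by the 2 glutamate decarboxylases, GAD67 (Gad1) and GAD65 (Gad2). The vesicular transporter VGAT (Slc32a1) loads it into synaptic vesicles, and GABA transaminase (Abat) breaks it down in neurons and astrocytes. Parvalbumin (Pvalb) and calretinin (Calb2) are calcium-binding proteins that mark separate classes of interneurons in the cortex and striatum, and both are also made by other neurons of the midbrain. Lhx6 is a homeodomain factor of interneurons born in the medial ganglionic eminence, and Dlx1 and Dlx2 are homeodomain factors of forebrain GABA neurons. In the NAc most neurons are GABAergic projection neurons, in the PFC GABA neurons are a minority of interneurons, and in the VTA they lie among dopamine neurons. In tissue libraries, fewer cells of a type and less RNA per cell cannot be told apart.

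Of the 9 genes 6 lie on chromosome 2. In mm9, the build of the files, Gad2 spans chr2:22477725-22549394 on the plus strand, Lhx6 chr2:35937470-35960928 on the minus strand, Gad1 chr2:70391129-70440071 on the plus strand and Slc32a1 chr2:158436494-158441484 on the plus strand. Dlx1, at chr2:71366170-71372038 on the plus strand, and Dlx2, at chr2:71381466-71384811 on the minus strand, face each other across 9428 bases. Calb2 is at chr8:112661402-112692110 and Pvalb at chr15:78021544-78036830, both on the minus strand, and Abat is at chr16:8513522-8621661 on the plus strand. All are protein-coding, and the values below are sums over their exons. Gad1, Slc32a1, Abat and Dlx1 overlap an annotated gene on the other strand, and whether counting used strand is not given in the sources used here. Gad2 overlaps a second annotated gene on its own strand. For Dlx1 the partner is Dlx1as (chr2:71354511-71375948, minus strand), with 17 to 104 reads in NAc libraries and 62 to 158 in PFC libraries, and reads of Dlx1 and Dlx1as may not be told apart.

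Promoter windows from RefSeq (GRCm38.p6) were matched by symbol for 7 of the 9 genes, in 10 windows, since Lhx6 and Pvalb have several start sites. The 250 bases before the start site are printed for the synthesis and vesicle genes, whose levels varied together across libraries, for the Dlx pair, and for the Lhx6 window that held a homeodomain core. Capitals mark TAATT, a core that homeodomain proteins bind, or GGGCGG, the GC box, on either strand. The 2 motifs share no bases in these windows. The windows lie at chr2:70561879-70562128 (Gad1, plus strand), chr2:22622077-22622326 (Gad2, plus strand), chr2:158610508-158610757 (Slc32a1, plus strand), chr2:71529195-71529444 (Dlx1, plus strand), chr2:71546755-71547004 (Dlx2, minus strand) and chr2:36104061-36104310 (Lhx6, start site 3, minus strand).
Gad1: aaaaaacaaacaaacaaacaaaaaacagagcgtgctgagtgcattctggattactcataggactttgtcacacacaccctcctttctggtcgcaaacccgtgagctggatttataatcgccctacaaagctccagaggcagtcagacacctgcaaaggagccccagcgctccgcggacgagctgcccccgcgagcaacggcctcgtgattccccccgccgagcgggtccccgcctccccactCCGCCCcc
Gad2: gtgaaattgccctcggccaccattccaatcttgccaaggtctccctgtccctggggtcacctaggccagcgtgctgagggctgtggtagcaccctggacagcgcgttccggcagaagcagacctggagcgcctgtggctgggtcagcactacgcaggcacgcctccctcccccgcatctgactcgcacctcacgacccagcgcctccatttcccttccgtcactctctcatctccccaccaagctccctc
Slc32a1: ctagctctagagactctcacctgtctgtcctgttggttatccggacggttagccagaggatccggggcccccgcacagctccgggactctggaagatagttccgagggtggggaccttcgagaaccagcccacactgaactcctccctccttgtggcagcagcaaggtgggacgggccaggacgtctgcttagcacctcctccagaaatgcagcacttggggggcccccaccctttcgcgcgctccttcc
Dlx1: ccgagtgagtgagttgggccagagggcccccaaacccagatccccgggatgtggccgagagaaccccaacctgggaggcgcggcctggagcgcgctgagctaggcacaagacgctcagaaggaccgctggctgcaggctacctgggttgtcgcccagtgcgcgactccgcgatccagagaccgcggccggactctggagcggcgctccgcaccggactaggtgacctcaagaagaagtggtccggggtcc
Dlx2: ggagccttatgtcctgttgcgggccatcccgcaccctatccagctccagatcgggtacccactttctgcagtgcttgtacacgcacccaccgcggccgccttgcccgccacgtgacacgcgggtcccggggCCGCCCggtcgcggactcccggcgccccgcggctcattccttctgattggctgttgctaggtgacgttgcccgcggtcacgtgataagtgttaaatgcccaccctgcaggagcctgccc
Lhx6: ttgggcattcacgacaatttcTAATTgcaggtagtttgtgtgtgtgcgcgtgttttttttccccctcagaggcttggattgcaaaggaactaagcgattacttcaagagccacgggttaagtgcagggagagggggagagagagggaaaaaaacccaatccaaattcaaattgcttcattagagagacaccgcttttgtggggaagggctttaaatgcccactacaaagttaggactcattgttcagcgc
TAATT was found in 1 of the 10 windows, that Lhx6 window, and in 25% of all 32851 promoter windows of this length. GGGCGG was found in 4 of the 10, against 32.7% of all. The GC content was above the median of all windows, 52.4%, in 9 of the 10. In these letters the Gad1 and Gad2 windows held no TAATT.

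The libraries held between 20971967 and 49700932 gene reads, with a median of 28687873. Levels are given as RPKM, gene reads scaled by exon length and library size, a scale that accounts for the length of a gene but not for its base composition. Markers of the dissected regions went with the labels: the 7 midbrain dopamine markers summed to between 422.8 and 2030 RPKM in VTA libraries, to at most 19.5 in the NAc and to at most 11.7 in the PFC. The 8 striatal projection neuron markers summed to at least 1506 RPKM in NAc libraries and to between 88.2 and 121.8 in 11 of the 12 PFC libraries at 28 days, but to 1291 in PFC saline library 4. The PFC comparisons of Gad2, Slc32a1 and Abat are given with and without it.

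The decarboxylases and VGAT were highest in the NAc. In saline libraries at 28 days, Gad1 was 175 ± 15 RPKM in the NAc (SD, n = 6), 116 ± 41 in the VTA (n = 5) and 98.0 ± 14.2 in the PFC (n = 6). Gad2 was 113 ± 12 in the NAc, 55.3 ± 9.1 in the VTA and 32.5 ± 12.5 in the PFC. The lowest NAc library, at 97.0, lay above the highest VTA library, at 67.4, and the highest PFC library, at 57.8. Slc32a1 was 103 ± 11 in the NAc, 59.9 ± 7.9 in the VTA and 32.5 ± 13.2 in the PFC. The plot of levels in every library shows this order for Gad2 and Slc32a1 and the wide VTA spread for Gad1.

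**Figure D1:**
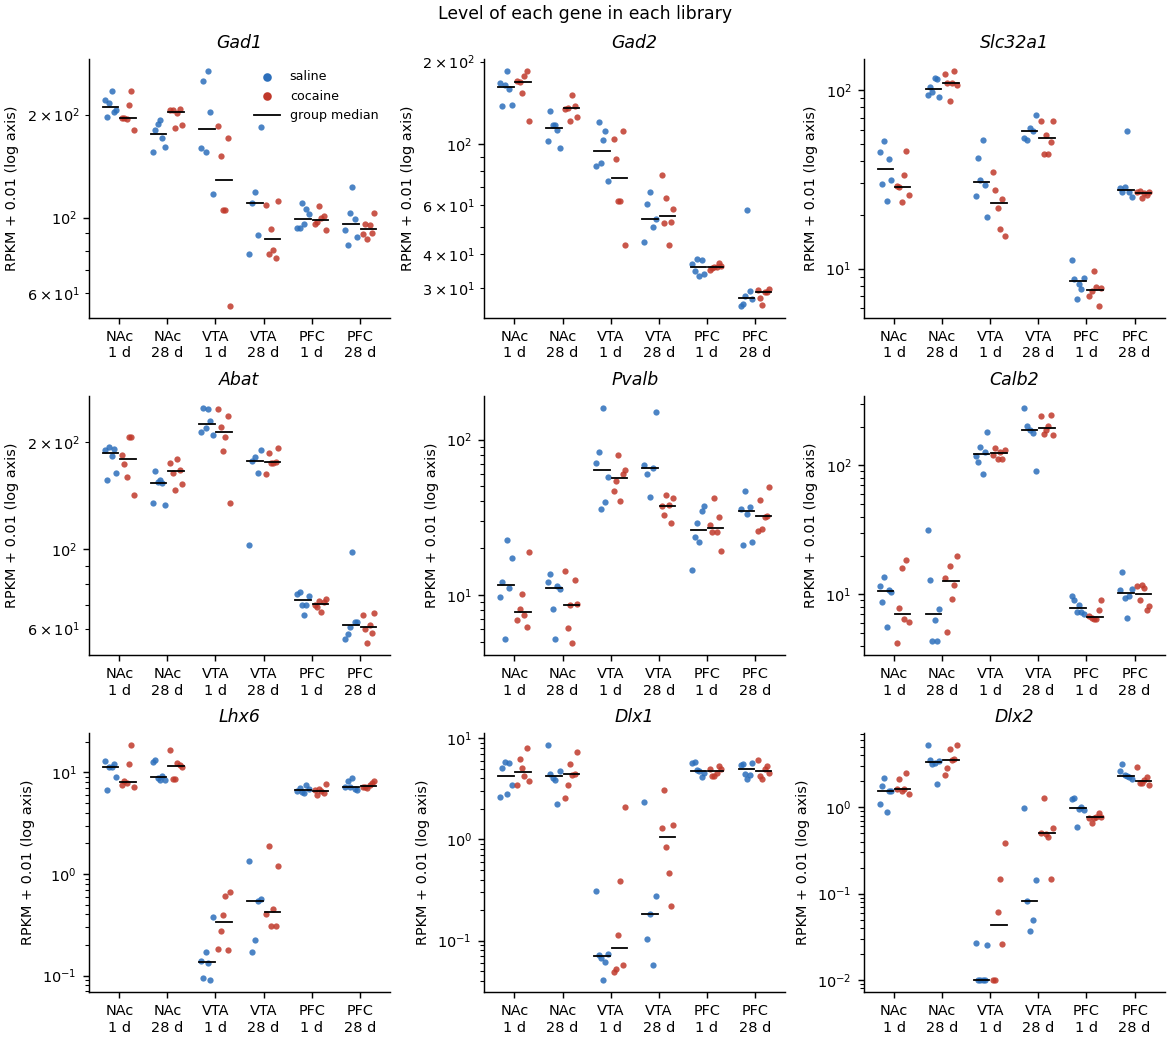
Level of each of the 9 genes in each library, as RPKM plus 0.01 on a log axis, by region and days of abstinence. Points are saline (blue) and cocaine (red) libraries and black lines are group medians. Gad2 falls from the NAc to the VTA to the PFC, Calb2 stands highest in the VTA, and Lhx6, Dlx1 and Dlx2 are lowest there.

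One edgeR fit of the 17 saline libraries at 28 days compared the regions, with p-values adjusted over 17181 genes. Each region enters 2 of the 3 comparisons, so they share libraries, and region and whatever else differed between the tables cannot be told apart. By the methods all 3 regions were dissected from the brains, so their libraries may share mice, and this fit treated them as separate. Between the NAc and the VTA 8 of the 9 genes passed an adjusted p of 0.05, where 62.5% of all genes did. Between the NAc and the PFC 5 of the 9 passed, against 40.7% of all genes, and between the VTA and the PFC 8 of the 9, against 57.8%. Gad1 was higher in the NAc than in the VTA by 0.70 ± 0.17 on the log2 scale (SE; adjusted p = 0.00208 in edgeR) and than in the PFC by 0.79 ± 0.17 (adjusted p = 0.000819 in edgeR). Its VTA and PFC levels differed by 0.10 ± 0.17, less than their spread (adjusted p = 0.644 in edgeR). VTA saline library 5 held 184 RPKM of Gad1 and the other VTA saline libraries 78.1 to 118, and the difference without library 5 is not given here. Gad2 fell in steps, with a difference of 1.14 ± 0.19 from the NAc to the VTA (adjusted p = 4.45e-05 in edgeR) and of 0.62 ± 0.18 from the VTA to the PFC (adjusted p = 0.00789 in edgeR). Between the NAc and the PFC Gad2 differed by 1.76 ± 0.18 and Slc32a1 by 1.63 ± 0.18, and by 2.03 ± 0.11 and 1.91 ± 0.10 without PFC saline library 4. From the NAc to the VTA and from the VTA to the PFC the steps of Slc32a1 were 0.90 ± 0.19 and 0.73 ± 0.19, with adjusted p of 0.000471 and 0.00244 in edgeR. Without PFC saline library 4 the VTA exceeded the PFC by 0.86 ± 0.11 for Gad2 and 0.99 ± 0.10 for Slc32a1. In the saline libraries at 1 day the NAc and VTA did not separate for Gad1 (0.22 ± 0.15, adjusted p = 0.197 in edgeR) or Slc32a1 (0.22 ± 0.20, adjusted p = 0.336 in edgeR). At 1 day Gad1 was higher in the VTA than in the PFC by 0.83 ± 0.15 (adjusted p = 6.48e-05 in edgeR).

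The balance of the decarboxylases differed between regions. Among the saline libraries at 28 days the ratio of Gad1 to Gad2 RPKM was 1.55 ± 0.11 in the NAc, 2.11 ± 0.74 in the VTA and 3.18 ± 0.55 in the PFC. The NAc libraries ran from 1.37 to 1.66 and the PFC libraries from 2.13, in library 4, to 3.68, so these regions did not overlap. Without library 4 the PFC ratio was 3.39 ± 0.22 (n = 5). At 1 day the ratio was 1.35 ± 0.08, 1.97 ± 0.34 and 2.80 ± 0.17 in the same order.

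Abat, whose product degrades GABA, did not follow the synthesis genes. Its level at 28 days was 149.6 ± 12.9 RPKM in the NAc, 163 ± 35 in the VTA and 66.4 ± 15.9 in the PFC. The NAc and the VTA differed by -0.02 ± 0.16 on the log2 scale (adjusted p = 0.926 in edgeR), and both were above the PFC, by 1.13 ± 0.15 and 1.15 ± 0.16 (adjusted p of 1.25e-05 and 6.45e-06 in edgeR), or by 1.30 ± 0.13 and 1.29 ± 0.13 without PFC saline library 4. At 1 day the VTA exceeded the NAc, with a NAc minus VTA difference of -0.27 ± 0.06 (adjusted p = 0.000804 in edgeR).

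The calcium-binding proteins were highest in the VTA. Calb2 was 188 ± 68 RPKM in the VTA, 11.2 ± 10.5 in the NAc and 10.4 ± 2.7 in the PFC, a VTA excess of 15.8-fold over the NAc and 16.2-fold over the PFC (adjusted p of 4.63e-07 and 4.86e-07 in edgeR). The NAc and the PFC did not separate for Calb2 (0.04 ± 0.40, adjusted p = 0.952 in edgeR). NAc saline library 1 held 31.7 RPKM of Calb2, and without it the NAc minus PFC difference was -0.58 ± 0.29 on the log2 scale and the NAc minus VTA difference -4.59 ± 0.34, against -3.98 ± 0.44 with it. Calretinin is also made by dopamine neurons of the VTA.

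Pvalb was 77.3 ± 41.6 RPKM in the VTA, 32.4 ± 9.7 in the PFC and 10.2 ± 3.1 in the NAc. The NAc was below the VTA by 7.07-fold and below the PFC by 3.27-fold (adjusted p of 3.43e-07 and 0.00013 in edgeR). The VTA exceeded the PFC by 2.16-fold (adjusted p = 0.00322 in edgeR). In the cocaine libraries at 28 days that last difference was -0.03 ± 0.20 on the log2 scale (adjusted p = 0.917 in edgeR), with 37.1 ± 5.5 RPKM in the VTA and 34.4 ± 9.1 in the PFC.

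The homeodomain genes were lowest in the VTA. Lhx6 was 10.1 ± 2.3 RPKM in the NAc, 7.47 ± 0.85 in the PFC and 0.56 ± 0.47 in the VTA, 19.6-fold and 14.96-fold below the other regions (adjusted p of 1.27e-08 and 4.02e-08 in edgeR). Dlx1 was 4.63 ± 2.10 in the NAc, 4.89 ± 0.75 in the PFC and 0.58 ± 0.98 in the VTA, and Dlx2 was 3.39 ± 1.09, 2.45 ± 0.37 and 0.25 ± 0.41. In the VTA, Dlx1 was 8.74-fold and Dlx2 15.3-fold below the NAc (adjusted p of 0.000495 and 1.56e-05 in edgeR). Without VTA saline library 1 these differences were 5.06 ± 0.40 and 5.76 ± 0.35 on the log2 scale, against 3.13 ± 0.66 and 3.93 ± 0.59 with it. The NAc and the PFC did not separate at 28 days for Lhx6 (0.39 ± 0.28), Dlx1 (-0.13 ± 0.55) or Dlx2 (0.42 ± 0.46). At 1 day the NAc exceeded the PFC for Lhx6 by 0.60 ± 0.16 and for Dlx2 by 0.56 ± 0.21 (adjusted p of 0.00476 and 0.0368 in edgeR), but with the replicate number as a block Dlx2 did not pass (adjusted p = 0.072 in edgeR).

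In some VTA groups 1 library stood above the others in Dlx1. At 28 days saline library 1 held 2.32 RPKM of Dlx1 (307 reads), and the other saline libraries held 0.09, 0.17, 0.05 and 0.27. At 1 day cocaine library 6 held 2.09 RPKM of Dlx1 (214 reads), against at most 0.38 in the other cocaine libraries. Dlx2 had no read in 4 saline and 2 cocaine VTA libraries at 1 day, which allows, at 3 reads, a level of up to 0.0425 to 0.0527 RPKM, for counting error only. At 1 day no fold is given against the VTA for these genes.

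Other GABA genes divided the regions too. Of the 6 midbrain GABA neuron factors all passed as higher in the VTA than in the PFC and than in the NAc, led by Lhx1, Gata3 and Sox14, where 29.8% and 32.6% of all genes passed in those directions. Lhx1 was 3.05 ± 0.87 RPKM in the VTA, 0.0296 ± 0.0174 in the NAc and 0.00571 ± 0.00574 in the PFC. Of 13 other interneuron markers 11 were tested, and 6 were higher and none lower in the NAc than in the VTA, with a median log2 difference of 1.03 against -0.03 for all genes, of which 29.8% were higher in the NAc. Npy was 101 ± 17 RPKM in the NAc, 102 ± 12 in the PFC and 2.95 ± 2.42 in the VTA. Sst was 418 ± 73, 389 ± 50 and 89.1 ± 67.6 in the same order. Between the NAc and the PFC 1 of the 11 was higher and 5 were lower in the NAc. There 40.7% of all genes passed in either direction. Of 14 forebrain interneuron factors 7 were higher and 4 lower in the NAc than in the VTA. Against the PFC 5 of them were higher and 5 lower in the NAc. Among the 10 GABA handling genes 9 were lower in the NAc than in the VTA, including the astrocyte GABA transporter Slc6a11, at 43.0 ± 16.7 RPKM against 270 ± 52. Of the 8 fast-spiking interneuron genes 6 were lower in the NAc than in the VTA and 1 was higher, and Pvalb, which went the same way, is not in that list.

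For some of the genes the libraries of the 2 time points held different levels. In saline libraries Slc32a1 was 37.1 ± 10.5 RPKM at 1 day and 103 ± 11 at 28 days in the NAc, while the VTA held 33.3 ± 11.9 and 59.9 ± 7.9 and the PFC 8.57 ± 1.49 and 32.5 ± 13.2. Gad2 differed the other way, from 159 ± 18 to 113 ± 12 in the NAc, from 96.4 ± 18.4 to 55.3 ± 9.1 in the VTA and from 35.8 ± 2.1 to 32.5 ± 12.5 in the PFC. The Slc32a1 to Gad2 ratio in NAc saline libraries was 0.24 ± 0.06 at 1 day and 0.92 ± 0.09 at 28 days. In the NAc Dlx2 was 1.49 ± 0.46 at 1 day and 3.39 ± 1.09 at 28 days, while Dlx1, its neighbor, was 4.23 ± 1.43 and 4.63 ± 2.10.

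The difference went with base composition over all genes. Over genes whose mean reached 1 RPKM at both time points, Spearman's rho between transcript GC content and the log2 ratio of 28-day to 1-day level was 0.84 in the NAc (12031 genes), 0.75 in the VTA (12381) and 0.85 in the PFC (11945). These are descriptions across genes within the same libraries, and genes are not replicates. Slc32a1 has the highest GC content of the 9 genes, 61.9%, and a log2 ratio of 1.48, 0.85 and 1.92 in the NAc, VTA and PFC. Gad2 has the lowest, 44.1%, and ratios of -0.48, -0.80 and -0.14. In the plot of this ratio against GC content Slc32a1 stands at the right and high in each region. Several members lie outside the band of all genes. In the VTA Gad1, Gad2 and Abat lie below it and Calb2 (0.57) above it, among others. In the PFC Gad1 (-0.03), Gad2, Pvalb (0.27), Calb2 (0.37) and Dlx2 (1.32) lie above it. In the NAc Dlx2 (1.19) lies above it, and Pvalb (-0.34) and Abat (-0.26) lie below it. Lhx6, at 56.2% GC, had ratios of -0.06 in the NAc and 0.14 in the PFC, both below the band. Dlx1, at 54.6%, had a ratio of -0.01 in the PFC, also below it. Time of abstinence, the separate tables and whatever differed in their libraries cannot be told apart. No level was therefore tested between the time points, and each cocaine comparison is made within a table.

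**Figure D2:**
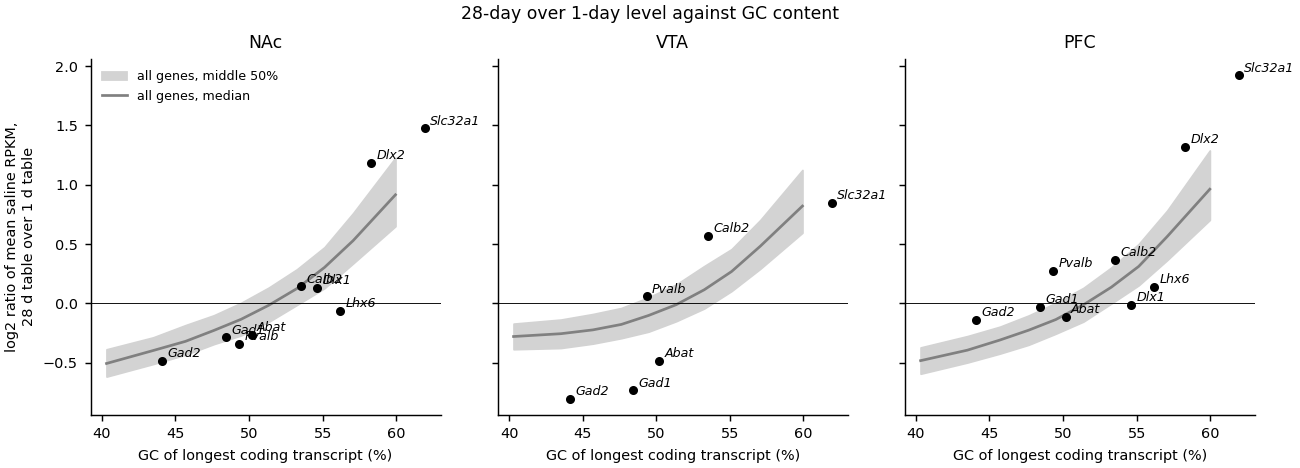
The log2 ratio of mean saline RPKM at 28 days over that at 1 day (y axis) against transcript GC content in percent (x axis), for members with at least 0.5 RPKM at 1 day (black points). The grey line and band are the median and interquartile range of all genes in 10 bins of GC content, and Slc32a1, at 61.9% GC, stands at 1.48 in the NAc, 0.85 in the VTA and 1.92 in the PFC.

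The members varied together in groups across libraries. After the mean of each region and treatment was taken away, Dlx1 and Dlx2 had a Pearson r of 0.93 at 28 days. Over these 35 libraries that was the highest r of any gene for each of them. By region it was 0.98 in the NAc, 0.93 in the VTA and 0.67 in the PFC. Gad1 and Slc32a1 had an r of 0.73, Gad1 and Gad2 of 0.60 and Gad2 and Slc32a1 of 0.60 over 34 libraries, without PFC saline library 4. In the NAc alone, over 12 libraries, r was 0.95 for Gad2 and Abat, 0.86 for Gad1 and Abat and 0.79 for Gad1 and Gad2. In the VTA, over 11 libraries, it was 0.39, 0.64 and 0.56 in the same order. In the PFC, with saline library 4, it was 0.97, 0.82 and 0.81. These libraries share tissue boundaries and depth, so r is a description with no test.

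The genes most like each member were also named. For Pvalb they were Kcnab3 (r = 0.88), Vamp1 (0.87) and Kcng4 (0.85) after group means were taken away. For Lhx6 the first was Npy, with r = 0.84 after group means were taken away and 0.98 before. For Gad2 Slc32a1 (0.80) came after Snx27 and Zswim5 (both 0.82), but without PFC saline library 4 these r were 0.60, 0.74 and 0.65 in the same order. For Gad1 they included Siglech (0.84) and Pfkfb3 (0.80), and for Slc32a1 Zfp503 (0.82), Itgb1bp1 (0.80) and Gad2. Without that library r was 0.55 for Slc32a1 and Zfp503 and 0.52 for Slc32a1 and Itgb1bp1. For Abat they were Man2a2 (0.88), Pik3c2b (0.87) and 1110018G07Rik (0.87), with r of 0.87, 0.80 and 0.79 without it. For Calb2 they were Grhl1, 4931428F04Rik and Sez6l, all between 0.87 and 0.88. Before group means were taken away, r over the same 35 libraries ranked the regions: Gad2 and Slc32a1 had 0.98, and the first gene for Calb2 was Pcbd1 (0.98) and for Gad1 Has3 (0.95).

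Cocaine and saline libraries were then compared in each region and time point. None of the 9 genes passed an adjusted p of 0.05 in any of the 6 tables, by edgeR for the 4 count tables and by limma for the 2 RPKM tables. The share of all genes that passed was 0.0126% at 1 day and 0.0% at 28 days for the NAc, 0.186% and 0.0% for the VTA, and 0.00693% and 0.0% for the PFC. At an unadjusted p of 0.05, 2 members passed in the NAc at 28 days, 1 in the VTA at 28 days and 1 in the PFC at 1 day, and none in the other 3 tables. The share of all genes was then 4.01% and 6.76% for the NAc at 1 and 28 days, 15.4% and 11.5% for the VTA, and 4.15% and 5.66% for the PFC. DESeq2 on the 4 count tables called 1 member, Pvalb in the VTA at 28 days, where it called 0.306% of all genes, against 0.0853% and 0.0771% in the NAc at 1 and 28 days and 0.00855% in the PFC at 28 days. In all 54 pairs of groups the cocaine and saline libraries overlapped, and the share of all genes whose groups overlap is not given here.

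**Figure D3:**
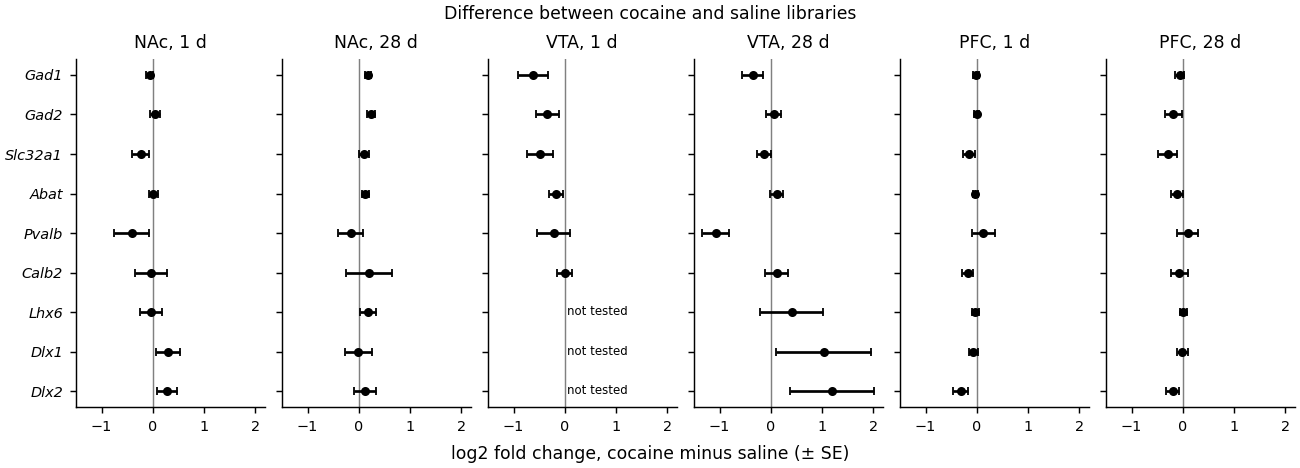
The log2 fold change of cocaine minus saline for each gene in each region and time point, with its SE. Lhx6, Dlx1 and Dlx2 in the VTA at 1 day were below the filter on low values. The point farthest below 0 is Pvalb in the VTA at 28 days, at -1.07, and in the PFC at 1 day the lowest point is Dlx2, at -0.32.

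In the NAc at 28 days of abstinence Gad1 and Gad2 were higher in cocaine libraries, without passing the adjusted threshold. Gad1 ran from 182 to 208 RPKM in cocaine libraries with a median of 204, and from 156 to 193 in saline libraries with a median of 175. Gad2 ran from 121 to 151 with a median of 135 after cocaine, and from 97.0 to 132 with a median of 115 after saline. For both genes no cocaine library was under the saline mean, and 4 of the 6 exceeded every saline library. The share of all genes with such counts is not given here.

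The difference was 0.18 ± 0.07 for Gad1 and 0.24 ± 0.07 for Gad2 (log2, SE), with unadjusted p of 0.0179 and 0.00608 and adjusted p of 0.672 and 0.592 in edgeR. An exact permutation test over the 924 divisions gave p of 0.0152 and 0.0108, not adjusted for the 54 gene and table pairs. Slc32a1 (0.10 ± 0.09) and Abat (0.13 ± 0.07) had smaller differences. In the same libraries the median sum of the 8 cortical excitatory neuron markers was 33.5 RPKM after cocaine, with a range of 12.2 to 212.7, and 69.5 after saline, with a range of 26.2 to 184.8. With those markers as a covariate the values were 0.12 ± 0.06 for Gad1 and 0.16 ± 0.06 for Gad2.

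The interneuron genes of the NAc at 28 days differed by less than the spread. Lhx6 was 11.5 ± 2.9 RPKM after cocaine and 10.1 ± 2.3 after saline, Dlx1 4.58 ± 1.65 and 4.63 ± 2.10, and Dlx2 3.69 ± 1.09 and 3.39 ± 1.09. Pvalb was 9.16 ± 3.58 against 10.2 ± 3.1. Calb2 was 12.7 ± 5.3 against 11.2 ± 10.5, a log2 difference of 0.20 ± 0.44 with saline library 1 and 0.82 ± 0.32 without it (unadjusted p = 0.0232 in edgeR). That library also held the largest sum of cortical markers among saline libraries, 184.8 RPKM, and its part in the Calb2 value was not tested.

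**Figure D4:**
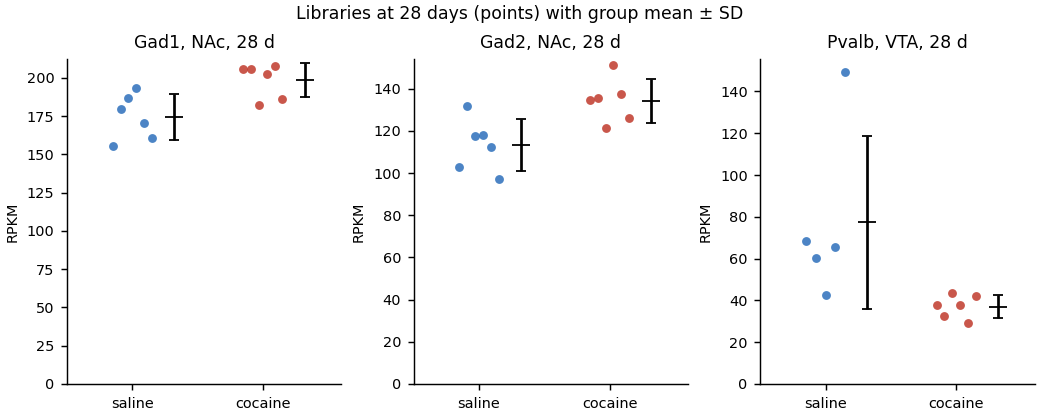
RPKM of Gad1 and Gad2 in the NAc and of Pvalb in the VTA at 28 days, in saline (blue) and cocaine (red) libraries, with the group mean and SD at the right of each group. Gad1 and Gad2 overlap between groups, and the Pvalb saline libraries spread from 42.6 to 149 RPKM.

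In the NAc at 1 day no member had an unadjusted p under 0.05 in edgeR or in DESeq2. Gad1 was 202 ± 19 RPKM after cocaine and 213 ± 14 after saline, and Gad2 163 ± 23 and 159 ± 18. For Gad1, 4 of the 6 cocaine libraries lay below every saline library, with p = 0.240 in the exact permutation test, not adjusted. The log2 differences of the 9 genes ran from -0.41 ± 0.34 for Pvalb to 0.29 ± 0.23 for Dlx1. Pvalb in cocaine library 6, at 19.0 RPKM, stood above the 6.17 to 10.2 of the other cocaine libraries. Dlx2, at 1.79 ± 0.40 against 1.49 ± 0.46 after saline, differed by 0.28 ± 0.19, and Dlx1, at 5.13 ± 1.77 against 4.23 ± 1.43, by 0.29 ± 0.23. The cortical marker sums of these libraries ran from 9.73 to 288 RPKM after cocaine and from 9.42 to 215 after saline.

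In the VTA at 1 day the synthesis genes were lower in cocaine libraries, again without passing the threshold. Gad1 ran from 55.2 to 185 RPKM with a median of 128 after cocaine, and from 117 to 269 with a median of 182 after saline. Slc32a1 ran from 15.2 to 34.6 with a median of 23.3 after cocaine, and from 19.5 to 52.3 with a median of 30.4 after saline. Of the 6 cocaine libraries 3 lay below every saline library for Gad1 and 2 for Slc32a1.

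The limma differences were -0.63 ± 0.30 for Gad1 (adjusted p = 0.333), -0.35 ± 0.22 for Gad2 (adjusted p = 0.492), -0.49 ± 0.25 for Slc32a1 (adjusted p = 0.384) and -0.17 ± 0.13 for Abat (adjusted p = 0.575). The median of the 6 genes tested was -0.28, against 0.03 for all genes. By edgeR on reads recovered from the RPKM, Gad1 (-0.62), Slc32a1 (-0.55) and Lhx6 (1.20) had an unadjusted p under 0.05 and none an adjusted one, where 0.341% of all genes passed. Pvalb (-0.22 ± 0.32) and Calb2 (-0.003 ± 0.149) differed by less than the spread. Cocaine library 6 held the lowest Gad1, and without it the difference was -0.40 ± 0.23.

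Markers of other tissue, and of other cells of the VTA, also differed between these libraries. The 8 cortical excitatory neuron markers summed to between 15.6 and 79.4 RPKM after cocaine and to between 9.33 and 36.3 after saline. The midbrain dopamine markers had medians of 853 after cocaine and 1358 after saline. Of the 6 dopamine markers tested 4 were lower at an unadjusted p of 0.05 in limma, with a list median of -0.57. The 5 microglia markers summed to medians of 81.2 after cocaine and 108.9 after saline, and 4 of them were lower at an unadjusted p of 0.05 in limma, with a list median of -0.45. At that threshold 15.4% of all genes passed in either direction. The parts of dopamine neurons and of microglia in the differences were not tested. With cortical markers as a covariate the differences were 0.06 ± 0.34 for Gad1, 0.06 ± 0.29 for Gad2, 0.10 ± 0.29 for Slc32a1 and 0.07 ± 0.17 for Abat. That covariate was the mean log2 level of all 8 markers, of which only 4 were high enough to be tested singly in limma. Its median was 0.09 after cocaine and -0.56 after saline, so this fit cannot fully separate it from treatment. With striatal markers as a covariate Gad1 stayed below 0, at -0.75 ± 0.33. The part of other tissue in the difference was not tested beyond these fits.

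**Figure D5:**
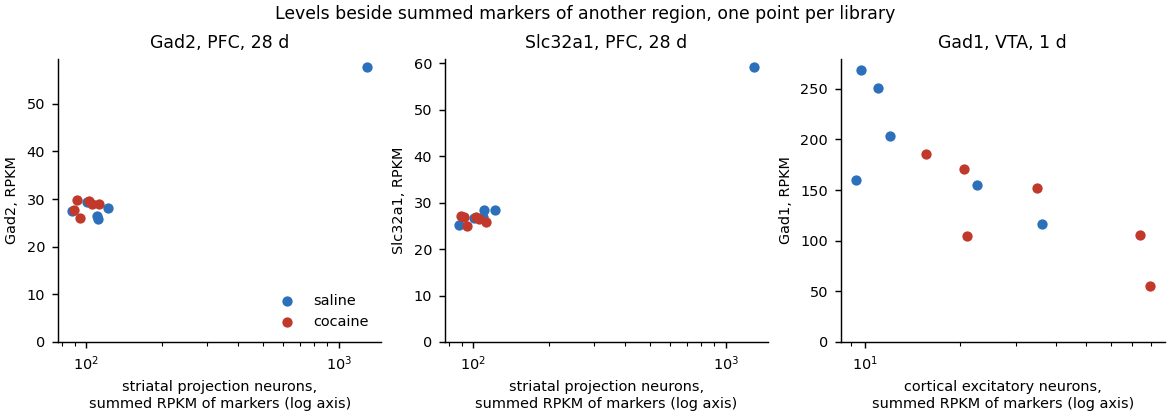
RPKM of Gad2 and Slc32a1 in the PFC at 28 days against the summed RPKM of striatal markers, and of Gad1 in the VTA at 1 day against that of cortical markers, on log x axes. Each point is a saline (blue) or cocaine (red) library. PFC saline library 4 stands alone at 1291 RPKM of striatal markers, 57.8 of Gad2 and 59.2 of Slc32a1, and the VTA library lowest in Gad1, at 55.2, holds the most cortical marker RPKM, 79.4.

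Lhx6, Dlx1 and Dlx2 were too low in the VTA at 1 day for the limma filter, a mean of 0.5 RPKM. Lhx6 ran from 0.17 to 0.66 RPKM after cocaine and from 0.08 to 0.36 after saline. Dlx1 and Dlx2 had medians of 0.08 and 0.03 after cocaine and of 0.06 and 0 after saline. Cocaine library 6, the library with the most cortical marker RPKM, held the highest level of each of the 3 genes.

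In the VTA at 28 days Pvalb was lower in cocaine libraries, with the smallest unadjusted p of the 9 genes, and did not pass the adjusted threshold. The cocaine libraries held 37.6, 32.6, 43.7, 37.7, 28.9 and 41.9 RPKM, and the saline libraries 68.6, 60.4, 42.6, 65.7 and 149. Of the 6 cocaine libraries 5 lay below every saline library, and cocaine library 3 lay just above saline library 3. The log2 difference was -1.07 ± 0.26, with an unadjusted p of 0.00161 and an adjusted p of 0.389 in edgeR. None of the 16937 genes had a lower adjusted p, but genes can share an adjusted p, so this does not rank Pvalb first. An exact permutation test over 462 divisions gave p = 0.00433, not adjusted.

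The call depends on the tool and its size on 1 library. DESeq2 gave -1.07 ± 0.26 with an adjusted p of 0.0249, over 23819 genes. Without saline library 5 the edgeR difference was -0.68 ± 0.15 (adjusted p = 0.676), and leaving out each library in turn gave values between -0.68 and -1.23. Of the 4 oligodendrocyte markers 3 were lower in cocaine libraries at an unadjusted p under 0.05 in edgeR, with a median log2 difference of -0.44 and summed medians of 3005 against 3844 RPKM, and their part in the Pvalb difference was not tested. Saline library 5 stood highest in these markers, at 5216 RPKM summed, and in Gad1, at 184 RPKM, and lowest in Calb2, at 89.7. With cortical or striatal markers as a covariate Pvalb differed by -0.76 ± 0.32 or -0.90 ± 0.22. Of 8 fast-spiking interneuron genes only Syt2, a synaptotagmin of fast-spiking terminals, had an unadjusted p under 0.05 in edgeR, at -0.70 ± 0.26. Among all genes 11.5% had one, and the median log2 difference of the 8 genes was 0.04.

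The other genes of the VTA at 28 days did not separate. Gad1 was 91.29 ± 15.98 RPKM after cocaine and 116 ± 41 after saline, a difference of -0.35 ± 0.20 that was -0.12 ± 0.15 without saline library 5. Gad2 was 57.7 ± 11.9 against 55.3 ± 9.1, Slc32a1 54.9 ± 10.8 against 59.9 ± 7.9, and Abat 178 ± 10 against 163 ± 35. Calb2 was 205 ± 32 against 188 ± 68.

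Dlx1 and Dlx2 in the VTA at 28 days turned on saline library 1. Dlx1 was 1.27, 3.04, 0.83, 0.45, 0.21 and 1.38 RPKM in cocaine libraries, against 2.32, 0.09, 0.17, 0.05 and 0.27 in saline libraries. Its difference was 1.03 ± 0.92, and 3.02 ± 0.75 without saline library 1 (adjusted p = 0.106 in edgeR). Dlx2 gave 1.19 ± 0.82 and 3.07 ± 0.63 (adjusted p = 0.103 in edgeR). Lhx6, from 0.30 to 1.87 RPKM after cocaine and from 0.16 to 1.33 after saline, differed by 0.41 ± 0.62. The striatal markers summed highest among the VTA saline libraries in that same library 1, at 183 RPKM.

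In the PFC at 1 day the synthesis genes differed little between groups. Gad2 was 35.8 ± 0.7 RPKM after cocaine and 35.8 ± 2.1 after saline, Gad1 99.0 ± 5.6 and 99.99 ± 7.27, and Abat 70.2 ± 2.1 and 71.8 ± 4.0. Their log2 differences were 0.003 ± 0.049, -0.01 ± 0.06 and -0.03 ± 0.05 in limma. Lhx6 (6.67 ± 0.59 and 6.78 ± 0.46) and Dlx1 (4.70 ± 0.46 and 4.94 ± 0.66) differed as little.

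Dlx2 was the exception at an unadjusted threshold. It ran from 0.65 to 0.84 RPKM after cocaine and from 0.59 to 1.25 after saline, with medians of 0.75 and 0.96. All 6 cocaine libraries lay below the saline mean, and saline library 3 lay below them all. The difference was -0.32 ± 0.14, with an unadjusted p of 0.0386 and an adjusted p of 0.918 in limma. An exact permutation test gave p = 0.0693. At these levels a cocaine library held 38 to 52 reads of Dlx2.

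In the PFC at 28 days no member had an unadjusted p under 0.05 in edgeR or in DESeq2. Gad2 ran from 26.1 to 29.7 RPKM after cocaine. Saline libraries 1, 2, 3, 5 and 6 held 25.9, 26.3, 28.0, 29.4 and 27.4, and saline library 4 held 57.8. Slc32a1 in the same order of saline libraries was 28.4, 27.0, 28.5, 26.7 and 25.2, and 59.2 in library 4, and Abat was 98.4 in library 4 against at most 62.5.

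With library 4 the differences were -0.18 ± 0.17 for Gad2, -0.30 ± 0.18 for Slc32a1 and -0.12 ± 0.12 for Abat. Without it they were 0.07 ± 0.05, -0.03 ± 0.05 and 0.04 ± 0.06. Library 4 held 1291 RPKM of striatal markers, and with striatal markers as a covariate Gad2 differed by 0.07 ± 0.06. Dlx2 (-0.20 ± 0.12) and Pvalb (0.10 ± 0.20) were -0.22 ± 0.13 and 0.11 ± 0.21 without that library.

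The change of the cocaine difference between 1 and 28 days was tested by an interaction term in each region. No member passed an adjusted p of 0.05 in edgeR or DESeq2, and the share of all genes that passed in edgeR was 0.0181% in the NAc, 0.0% in the VTA and 0.00604% in the PFC, and in DESeq2 0.0492%, 0.73% and 0.0164%. At an unadjusted p of 0.05, 1 member passed in the NAc and none in the other regions by either tool. It was Gad1, whose NAc difference went from -0.06 ± 0.07 at 1 day to 0.18 ± 0.07 at 28 days, a change of 0.25 ± 0.10 (unadjusted p = 0.0158, adjusted p = 0.886 in edgeR). For this term 5.27% of all genes had an unadjusted p under 0.05 in the NAc, 15.6% in the VTA and 4.85% in the PFC. For Pvalb in the VTA the change was -0.65 ± 0.45 (adjusted p = 0.520 in edgeR).

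The other GABA genes gave no call between cocaine and saline either. In none of the 6 tables did a gene of the 5 lists pass an adjusted p of 0.05 in edgeR or limma. At an unadjusted p of 0.05, which 15.4% of all genes passed there, the VTA at 1 day held the most. Among the 10 GABA handling genes 3 were higher and 1 lower, and among 13 other interneuron markers 2 of the 10 tested were higher. Of the forebrain interneuron factors 8 were tested, with 2 higher and 2 lower, of the fast-spiking genes 7, with 1 higher and 1 lower, and of the 6 midbrain GABA neuron factors 2 were lower, with a list median of -0.43. The interneuron markers were Kit (1.20 ± 0.22, adjusted p = 0.0713 in limma) and Nos1 (1.43 ± 0.31, adjusted p = 0.0964 in limma), with a list median of 0.69 against 0.03 for all genes. Slc6a11, the astrocyte transporter, was -0.52 ± 0.14, Pthlh of the fast-spiking list was 1.79 ± 0.43, and the midbrain factor Tal1 was -0.74 ± 0.31.

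In the VTA at 28 days, where 11.5% of all genes passed that threshold in edgeR, the midbrain factors Gata2 (-0.83 ± 0.31) and Gata3 (-0.84 ± 0.36) were lower. The amino acid transporter Slc38a5 (-0.80 ± 0.30) was lower and the forebrain factor Dlx5 (1.38 ± 0.62) higher, each the only gene of its list, and of the 10 interneuron markers tested none passed.

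In the NAc at 28 days, where 6.76% of all genes passed, 2 of the 9 GABA handling genes tested were higher, the transporter Slc6a13 (0.43 ± 0.17) and Aldh5a1 (0.12 ± 0.06), which acts after Abat in GABA breakdown. The forebrain factor Sox6 (0.15 ± 0.07) and Nxph1 of the fast-spiking list (0.14 ± 0.06) were higher too. In the PFC at 28 days, where 5.66% of all genes passed, the interneuron markers Htr3a (0.36 ± 0.12) and Vip (0.31 ± 0.11) were higher, with adjusted p of 0.842 for each in edgeR, and so was Kcnc2 (0.20 ± 0.09) of the fast-spiking list. Of the 12 forebrain factors tested there 1 was higher and 2 were lower, among them Maf (0.18 ± 0.08) and Sp9 (-0.54 ± 0.24). In the NAc and PFC at 1 day the only gene of the lists at that threshold was Slc38a5, at -0.50 ± 0.15 and -0.48 ± 0.21, where 4.01% and 4.15% of all genes passed.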

How the data were processed

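RNA-seq reads of mouse NAc, VTA and PFC were aligned by the authors to mm9 (the submitters' processing notes name STAR 2.4.1d, edgeR and DESeq2). Raw read counts per gene were deposited by the authors for the NAc at both time points and for the VTA and PFC at 28 days, and RPKM values were deposited by the authors for the VTA and PFC at 1 day, the unit for which the limma test was chosen. RPKM was computed here from the counts with the exonic length of each gene, and whole reads were recovered from the deposited RPKM for 100% of the 23353 (PFC) and 23806 (VTA) genes with reads, to within 0.01 read. Run on those reads, edgeR called 55 of all genes in the VTA and 1 in the PFC. The same reads entered the time interaction and the region comparison at 1 day. Columns of the authors' own comparisons, with fold changes and p-values, and 30 columns that matched no sample were not used. At 28 days the column numbers do not match the sample titles, so columns were assigned to groups by treatment only, and library numbers name columns.

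Counts were tested with edgeR 4.0.16 (quasi-likelihood, filterByExpr with a count minimum of 10 and a total of 15, TMM), and RPKM values, after adding 0.1 and taking log2, with limma 3.58.1. Genes whose mean stayed under 0.5 RPKM were left out, and on that scale a fold change understates that of low genes. All p-values were adjusted by Benjamini-Hochberg over all genes tested, with a threshold of 0.05, in R 4.3.3. Single genes were also compared by an exact two-sided permutation test of mean log2 values. DESeq2 1.42.0, other normalizations, no filter, a pseudocount of 1, tissue markers as covariates, a replicate block and leaving out each library were alternatives. The tests were tested on simulated data, and 0 pairs of libraries in a group held identical values. For each of the 9 genes the 3 genes with the highest r of log2 CPM were taken. Not all of the 9 are named in every comparison, and of each other list at most 3 genes are, by smallest unadjusted p. Pthlh, Slc38a5 and the other list genes follow that rule. Some genes that this rule would name are not reported here. The members and lists were chosen with earlier results of these data known. Counting limits at 0 reads cover counting error only.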

Additional observations from a re-analysis of the deposited data

Results flagged for a closer look

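A single library stood far from the others of its group, by Dixon's test at the 95% level, in 12 of the 108 gene and group combinations (11.1%), where chance flags about 1 in 20. In PFC saline library 4 at 28 days Gad2 was 57.8 RPKM against 25.9 to 29.4 in the other libraries, Slc32a1 59.2 against 25.2 to 28.5, and Abat 98.4 against 56.0 to 62.5. In VTA saline library 5 at 28 days Pvalb was 149 RPKM against 42.6 to 68.6. In VTA saline library 1 at 28 days Dlx1 was 2.32 against 0.0481 to 0.268, and Dlx2 0.969 against 0.0269 to 0.134.

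In the VTA at 1 day, cocaine library 6 held 2.09 RPKM of Dlx1 against 0.0387 to 0.377 in the other cocaine libraries, and 0.374 of Dlx2 against 0 to 0.139. Saline library 1 held 0.298 of Dlx1 against 0.0309 to 0.0637, and saline library 6 held 0.365 of Lhx6 against 0.0804 to 0.160. In the NAc, Pvalb was 19.0 RPKM in cocaine library 6 at 1 day against 6.17 to 10.2, and Calb2 was 31.7 in saline library 1 at 28 days against 4.35 to 12.9. The causes were not tested.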

How the results depend on the processing

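The count of the 9 genes called stayed within 1.5 times the reported count in all but 1 setting. DESeq2 called 1 member, Pvalb, in the VTA at 28 days. Leaving out each library in turn gave 0 members called in every cocaine comparison and time interaction, 8 between the NAc and the VTA, 5 between the NAc and the PFC and 8 between the VTA and the PFC. Leaving out PFC saline library 4 and VTA saline library 5 together, chosen after seeing the data, left these region counts at 8, 5 and 8. Over all 17205 genes 10344, 7238 and 9430 passed in that setting, and with every library 62.5%, 40.7% and 57.8% of genes passed. The PFC ratio of Gad1 to Gad2 and the correlations without PFC saline library 4 were also added after seeing the data. Of the single-gene values, 2162 were classed as the same, 9 newly passed the threshold, 4 no longer passed and 12 were classed as reversed in sign. Some values near 0 crossed it without being classed as reversed, as Abat did in the PFC at 28 days without saline library 4.

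With cortical markers as a covariate the VTA differences at 1 day changed sign for Gad1 (0.0588), Gad2 (0.0642), Slc32a1 (0.10) and Abat (0.0652), and Calb2 in the VTA at 28 days was -0.28. With striatal markers Gad2 in the PFC at 28 days was 0.0709. In the cocaine libraries at 28 days the VTA minus PFC differences of Gad1 and Pvalb were -0.16 and -0.0264. Leaving out each library in turn, Dlx1 in the NAc at 28 days ran from -0.19 to 0.24 (without saline library 1), Calb2 between the NAc and the PFC from -0.58 (without NAc saline library 1) to 0.22, Gad2 in the PFC at 28 days from -0.24 to 0.0679 (without saline library 4) and its time interaction from -0.25 to 0.0593 (without that library). The causes were not tested.

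Counts over all genes depended more on the tool. In the VTA at 1 day 28 genes passed, against 55 by edgeR on recovered reads, 13 with the replicate block, 2 with no filter and 0 with either covariate. DESeq2 called 20 genes against 2 in the NAc at 1 day, and 18, 73 and 2 against 0 in the NAc, VTA and PFC at 28 days. For the interaction it called 12, 181 and 4 against 3, 0 and 1. A marker covariate gave 4 genes against 2 in the NAc at 1 day and 2 against 1 in the PFC at 1 day.

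Whether equal replicate numbers at 1 day mark any link between libraries is not given. In cocaine and saline libraries r of same-numbered deviations was -0.491 to 0.593 in the NAc (3 of 6 over 0.1). It was -0.266 to 0.447 in the VTA (4 of 6) and -0.163 to 0.0715 in the PFC (0 of 6). Of the cocaine libraries 1, 2 and 0 correlated best with their own number, in that order of regions. Between saline libraries of different regions r was -0.295 to 0.153 for NAc and VTA and -0.473 to 0.244 for NAc and PFC. For VTA and PFC it was -0.232 to 0.239. With the replicate block 0 members were called between cocaine and saline at 1 day. Between regions at 1 day the block called 7 members for NAc and VTA, 6 for NAc and PFC and 9 for VTA and PFC. Of all 16430 genes it called 10472, 6183 and 10242 in the same order. Dlx2 between the NAc and PFC no longer passed (adjusted p = 0.072 in edgeR). The VTA spread limits what its tables can show, and levels near 0 limit Lhx6, Dlx1 and Dlx2 there.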
